A study of Caenorhabditis elegans with 2 samples.

Results

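The 70 mitochondrial ribosomal protein genes of Caenorhabditis elegans were examined for LIN-35 binding at their promoters. They are the protein-coding genes of the Ensembl WBcel235 annotation whose symbols begin with mrpl or mrps, a hyphen and a number, out of 19973 protein-coding genes on the nuclear chromosomes. Of the members, 41 carry mrpl symbols, for the large subunit, and 29 carry mrps symbols, for the small subunit. The samples form 1 group of 2 biological replicates, whole first-stage (L1) larvae of strain YL398 with males and females pooled, from which chromatin was immunoprecipitated and sequenced. The strain carries unc119(ed3)III and the insertion vrIs55, a transgene under the gut-specific ges-1 (esterase) promoter that encodes a LIN-35, GFP and FLAG fusion ahead of lin-35 3' sequence, together with unc-119(+). One field of the labels has lin-35 as antibody and another the eGFP fusion, so whether LIN-35 outside the gut was also precipitated cannot be told apart here. No group without the fusion was analysed here.

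Mitochondrial ribosomes translate the few proteins that the mitochondrial genome encodes, most of them subunits of the respiratory chain. Their RNA is made inside the organelle, while their proteins are encoded in the nucleus, made in the cytosol and imported. LIN-35 is the worm retinoblastoma-family protein and part of the DREAM complex, known for repressing cell cycle genes with E2F-type DNA-binding partners. In C. elegans many genes lie in operons, where 1 promoter upstream of the first gene serves a row of genes on the same strand separated by short gaps.

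The deposited data are peak lists, and every peak has a summit and a signal, an enrichment scored by the authors' peak caller that can be compared within a list but not between lists. The main list is the set of 6712 peaks that passed the authors' irreproducible discovery rate threshold (IDR), here called reproducible. The median signal of its peaks was 98.5, the lowest 45.9 and the highest 4903. Longer relaxed lists, which include background, held 30000 peaks for replicate 1, 26341 for replicate 2 and 30000 for both replicates pooled. Read depth is unknown from these lists. A gene had a promoter summit when a summit lay from 500 bp upstream to 200 bp downstream of one of its annotated transcript starts. At every member with a reproducible promoter summit, signal and rank in the reproducible list equalled those in the pooled relaxed list. For the members, that signal is therefore a pooled value and does not measure agreement between the replicates. Neither lin-35 nor ges-1 had a reproducible or pooled relaxed promoter summit, and unc-119 had a reproducible one of signal 65.7 at 179 bp downstream of its start.

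A reproducible promoter summit was found at 41 of the 70 members, 58.6% (95% Wilson interval 46.9 to 69.4), against 19.7% of the other protein-coding genes (3918 of 19903, 19.1 to 20.2). Each of the 41 had exactly 1 summit in its window. Intervals here and below take genes or peaks as units and cover counting error only, not variation between larval cultures. With 1 group of samples, no test between conditions is possible, and no test was made of the list against other genes.

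Sequences are shown from some of the strongest peaks and from some of the members whose summit region held an E2F-type word, because E2F proteins are the DNA-binding partners of LIN-35. They are 30 bases of the WBcel235 (ce11) genome in RefSeq, written 5' to 3' on the strand of the member. At mrpl-55, which had the strongest peak, the capital marks the summit base. At mrps-16, mrpl-28, mrps-9, mrps-25 and mrps-31 the capitals mark GCGCGAA or GCGGGAA on either strand. At mrpl-44, mrpl-2 and mrpl-49 they mark TTTGAA on either strand, a word of the CHR type that DREAM subunit LIN-54 is known to bind. These words lay 28, 45 and 54 bp from the summit. Words of this type were about as frequent within 75 bp of member summits (42.5%) as of promoter summits of other genes (39.4%), and binding to them was not tested.
mrpl-55, chrIV:443851-443880, plus strand: gaaaagtgagcgccgCaaacgcgctccgct
mrps-16, chrII:5474113-5474142, plus strand: caaaattaaatTTCGCGCgaaattactctt
mrpl-28, chrII:156162-156191, minus strand: aaacatttaattTTCGCGCactttgcaccg
mrps-9, chrIII:8265907-8265936, plus strand: tgagtgatgcaTTCGCGCtccattgacaaa
mrps-25, chrIV:1056582-1056611, plus strand: atgtaatttttGCGGGAAatagacgaaaaa
mrps-31, chrIII:3630551-3630580, minus strand: gcgtgggaaaatGCGGGAAaatgcaggcag
mrpl-44, chrIII:9089652-9089681, minus strand: caaaaactctaaTTTGAAcgcccgcgtttt
mrpl-2, chrIV:773071-773100, plus strand: tgggaaaaacgtTTCAAAaactcttattga
mrpl-49, chrV:12728512-12728541, plus strand: gacacaacttctTTCAAAataaattatttc
In mrps-16 a second GCGCGAA, read on the other strand, overlaps the one in capitals.

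Among the large subunit genes, 23 of 41 (56.1%, 41.0 to 70.1) had a reproducible promoter summit. The strongest was at mrpl-55, a mitochondria-specific subunit gene (chromosome IV, peak 443614 to 444033, summit at 443866, upstream of the start), with signal 1478 in the reproducible list, rank 121 of 6712. Its peak had signal 1416 in replicate 1 and 63.5 in replicate 2. It was followed by mrpl-47 (chromosome I, 5244114 to 5244429, summit 1 bp downstream of the start), with signal 1381 in the reproducible list, 1319 in replicate 1 and 60.9 in replicate 2, and by mrpl-28 (chromosome II, 155962 to 156300, summit 123 bp upstream), with signal 1258 in the reproducible list, 1126 in replicate 1 and 130 in replicate 2. The mrpl-28 peak ranked 174 in replicate 1 and 64 in replicate 2, the highest rank of any member in replicate 2. These 3 summits lay in the window of no other protein-coding gene. At mrpl-44, whose human counterpart has a ribonuclease III fold, the peak (chromosome III, 9089498 to 9089797) had signal 835, with 783 in replicate 1 and 50.4 in replicate 2. At mrpl-2, whose bacterial counterpart lies near the peptidyl transferase centre, it (chromosome IV, 772990 to 773272) had signal 498, with 478 in replicate 1 and 18.1 in replicate 2. At mrpl-49 it (chromosome V, 12728342 to 12728596) had signal 493, with 468 in replicate 1 and 21.1 in replicate 2. These 3 peaks thus stood in the same order in the reproducible list and in replicate 1, while in replicate 2 mrpl-49 stood above mrpl-2. Signal was 360 at mrpl-45 (chromosome III, 1202241 to 1202488), whose human counterpart sits at the exit of the peptide tunnel, and 308 at mrpl-17 (chromosome I, 3162524 to 3162755). The peak of mrpl-11, whose bacterial counterpart lies at the base of the stalk where translation factors bind, had signal 92.7. The weakest reproducible member peaks of the large subunit were at mrpl-38 (52.0) and mrpl-32 (56.2).

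Of the small subunit genes, 18 of 29 (62.1%, 44 to 77.3) had a reproducible promoter summit. At mrps-16 the peak (chromosome II, 5473983 to 5474304, summit 225 bp upstream) had signal 1442, rank 128, with signal 1365 in replicate 1 and 75.7 in replicate 2. At mrps-7, whose bacterial counterpart binds the RNA of the small subunit head, the peak (chromosome IV, 14767759 to 14768032, summit 174 bp upstream) had signal 684, with 609.7 in replicate 1 and 73.3 in replicate 2. At mrps-35 it (chromosome V, 18981015 to 18981324, summit 131 bp upstream, in a UTR exon) had signal 629, with 580.5 in replicate 1 and 45.8 in replicate 2. In replicate 1 mrps-16 stood well above these, while in replicate 2 mrps-16 and mrps-7 were close. The mrps-17 peak (chromosome III, 6431827 to 6432063) had signal 326, and that of mrps-12, whose bacterial counterpart lies at the decoding centre, 56.6. The weakest small subunit peak, at mrps-34 (51.7), was the lowest of all members. The shares of the large and small subunit genes differed by -5.97 percentage points (Newcombe interval -27.4 to 16.9), so a difference was not detectable over this number of genes. The symbols are not a perfect guide to position, since the human counterparts of mrps-30 and mrps-18A are placed in the large subunit.

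**Figure D1:**
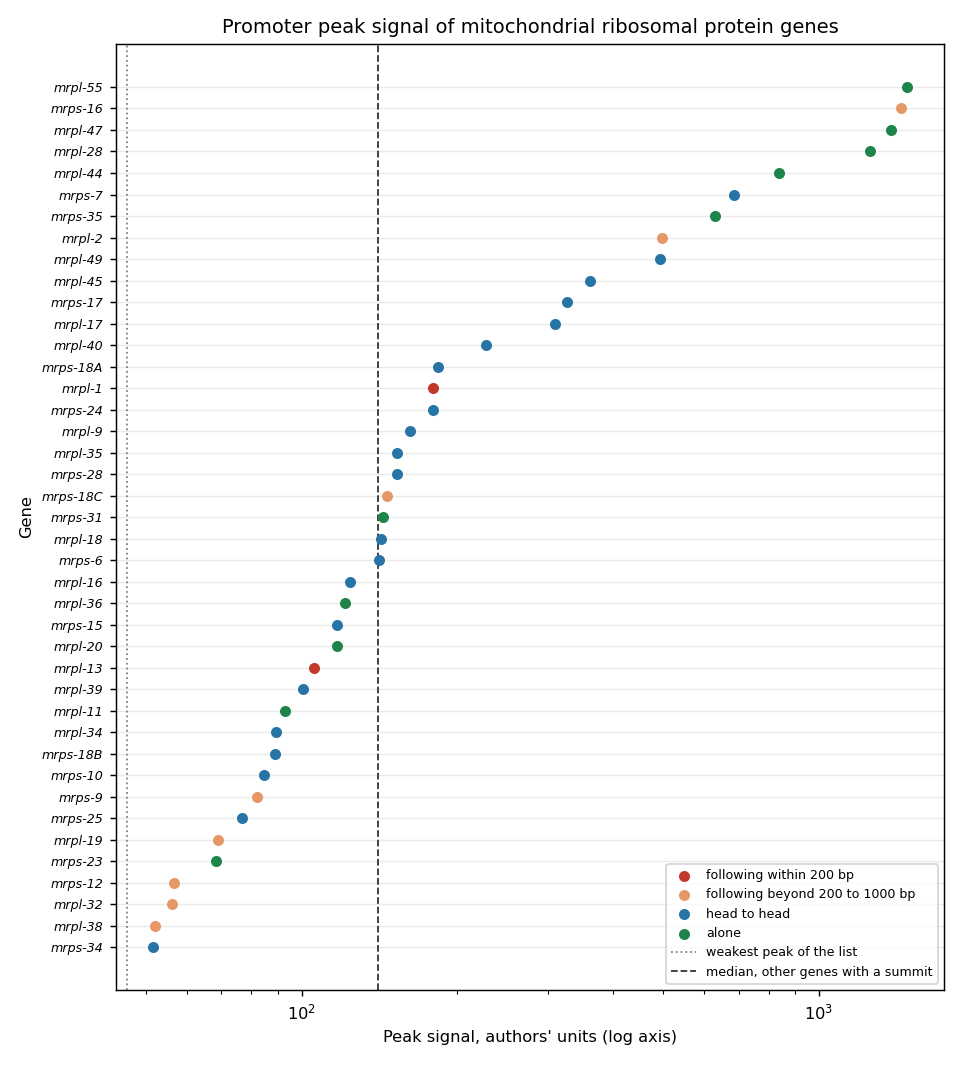
Peak signal (authors' units, log axis) in the reproducible list for each of the 41 members with a promoter summit, one row per gene and coloured by gene arrangement; the lines mark the weakest peak of the list (45.9) and the median of other genes with a summit (141). The strongest members lie near 1478 and the weakest at 51.7, and the genes in red, which follow another gene within 200 bp, number only 2.

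The signal of the members with a summit ranged over most of the list. Their median signal was 143 (order-statistic 95% interval 106 to 184, n = 41), against 141 (133 to 147) over the 3918 other genes with a summit. Among the stronger 3356 peaks of the list were those of 29 of the 41 (70.7%), against 2507 of 3918 other genes with a summit (64.0%). The cytosolic ribosomal protein genes, by contrast, had a median of 475 (397 to 557), with a reproducible promoter summit at 69 of 78 (88.5%). With a window of 250 bp either side of a start the order of the lists turned, with a summit at 44.3% of the members and 19.2% of the cytosolic ribosomal protein genes. The signal intervals of the mitochondrial and cytosolic ribosomal genes do not overlap. All these medians are over genes with a summit, not over all members.

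Numbers up to 36 in the large subunit and up to 21 in the small one follow the names of bacterial ribosomal proteins, while higher numbers were mostly given to proteins found only in mitochondria. Among members with bacterial numbers, 26 of 41 (63.4%, 48.1 to 76.4) had a reproducible promoter summit, against 15 of 29 with higher numbers (51.7%, 34.4 to 68.6). The difference of 11.7 percentage points (Newcombe interval -11.1 to 33.3) was not detectable, and it became -5.80 with the strongest peaks of replicate 2 alone. Counting mrps-24 and mrps-28 with the bacterial numbers, since their human counterparts are related to bacterial proteins, gave 28 of 43 against 13 of 27. Median signal was 133 for the bacterial numbers and 179 for the others, with overlapping intervals (92.7 to 179 and 76.7 to 629).

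The members without a summit were mostly those placed closely behind another gene. Of the 70, 22 began within 200 bp after the end of a protein-coding gene on the same strand, or overlapped it, and 2 of these 22 had a reproducible promoter summit (9.09%, 2.53 to 27.8), against 11.1% of the other protein-coding genes placed in this way (270 of 2443). Of the remaining 48 members 39 had one (81.2%, 68.1 to 89.8), against 20.9% (20.3 to 21.5) of the other genes not so placed. Close following was more frequent among the members, at 31.4% (21.8 to 43.0), than among the other protein-coding genes, at 12.3% (11.8 to 12.7). The 200 bp limit was chosen after the values were seen.

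The remaining members were split by the same annotation. Following at more than 200 and up to 1000 bp, 8 of 12 had a summit (66.7%, 39.1 to 86.2), against 17.3% of the other genes. Head to head, with an opposite-strand gene starting within 1000 bp upstream, 21 of 25 did (84.0%, 65.3 to 93.6), against 43.7% of the other genes. With neither kind of neighbour by these limits, 10 of 11 did (90.9%, 62.3 to 98.4), against 14.6% of the other genes. These members are not all free of close neighbours. The summits of mrpl-44, mrps-35 and mrps-23 among them also lay in the promoter window of another gene. With the planned limit of 1000 bp for following genes, 10 of 34 following members had a summit (29.4%), against 14.8% of the other genes in that arrangement, and 31 of the other 36 members did. With the strongest peaks of replicate 2 alone, these counts were 5 of 34 and 24 of 36, those within 200 bp were again 2 of 22, and those at more than 200 and up to 1000 bp were 3 of 12. The last class was also at 3 of 12 in the stronger 3356 reproducible peaks. Assigning each summit to the nearest start within 2 kb gave 11 of 34 following members and 25 of the other 36.

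**Figure D2:**
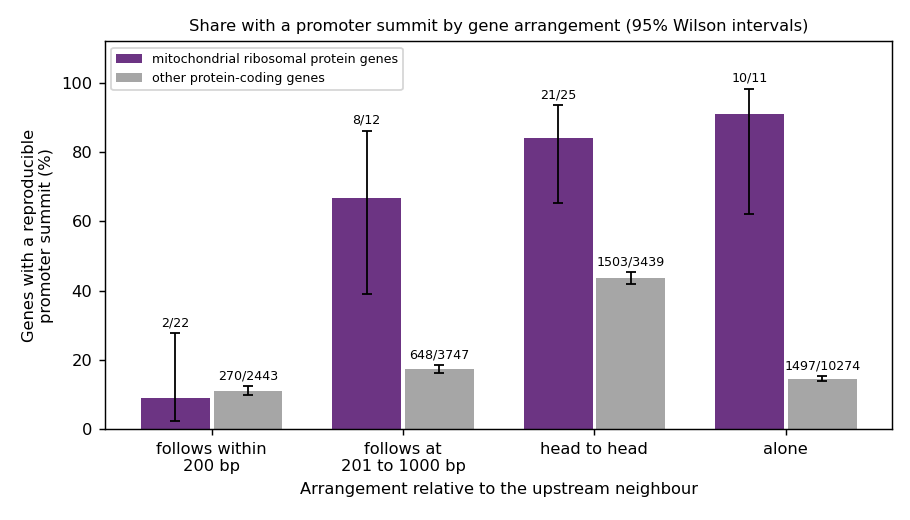
Share of genes with a reproducible promoter summit (percent, bars start at 0, 95% Wilson intervals, counts above each bar) by arrangement relative to the upstream neighbour, for the members and for other protein-coding genes. Members within 200 bp of the preceding gene sit at 9.09%, against 11.1% of other genes in that arrangement, and members in the other 3 arrangements run from 66.7% to 90.9%, where the lowest, 8 of 12, becomes 3 of 12 with the strongest peaks of replicate 2 alone.

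The gaps in front of the closely following members were narrow in their spread. Of the 22, 18 had a gap of 91 to 120 bp, and the median was 104.5 bp, against 781 of the 2443 other genes following within 200 bp, with a median of 96 bp. The gene models used here do not mark operons, so membership in one was not tested. Each of these members was followed upstream, gene by gene, to the first gene of its row. That first gene had a reproducible promoter summit for 16 of the 20 closely following members without a summit of their own (80.0%, 58.4 to 91.9), against 981 of 2173 such other genes (45.1%, 43.1 to 47.2). Genes of 1 row share a first gene, as mrps-2 and mrpl-4 share natc-1, so 1 summit can count more than once. The intervals do not allow for this. For mrps-5, the member best known from studies of worm lifespan, no summit was found in any of the 4 lists. It starts 104 bp after sel-1, which had a summit of signal 96.8. The pair mrps-2 and mrpl-4 stands in 1 row behind natc-1, whose summit had signal 369 at 71 bp upstream of its start, and neither member had a summit. Similarly mrps-22 lies behind dap-3, which encodes a further small subunit protein and had no reproducible or pooled relaxed summit itself, and the first gene of that row, the RNA polymerase subunit gene rpb-6, had one of signal 647. Among the other rows, W04B5.5 at the head of the row of mrpl-30 had a summit of signal 1352, the ATP synthase gene atp-2 at the head of the row of mrps-26 one of 409 and the chaperonin gene cct-2 at the head of the row of mrpl-50 one of 91.9. None was found at the first genes of the remaining 4 rows, zhit-2 (with mrpl-21), fars-1 (with mrpl-23), nrde-2 (with mrps-14) and cdc-26 (with mrps-30).

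The exceptions within 200 bp were mrpl-13 and mrpl-1. The mrpl-13 summit lay 59 bp downstream of its start, in a coding exon (signal 106), and the gene begins 105 bp after F13G3.7. The mrpl-1 summit (chromosome IV, peak 7709818 to 7710002, signal 179) lay 208 bp upstream of its start and also in the windows of emc-6, whose end it overlaps, and of mrps-24 on the opposite strand. It is the one summit that 2 members share, so the 41 genes have 40 distinct summits.

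Of the 29 members without a reproducible promoter summit, 20 followed another gene within 200 bp. The other 9 were mrpl-22, mrpl-41, mrpl-46 and mrpl-54, which follow at longer gaps, mrpl-10, mrpl-12, mrpl-37 and mrpl-51, which are head to head with a neighbour, and mrpl-15. The bacterial counterparts of mrpl-10 and mrpl-12 form the stalk of the large subunit that recruits translation factors. A pooled relaxed promoter summit was present at 15 of the 29, with signals from 7.32 at mrpl-53 to 33.4 at mrps-21, and 11 of these lay downstream of the start. In the relaxed lists a summit was present at 56 of the 70 members (80.0%) for the pooled list, against 38.1% of the other genes, at 53 (75.7%) for replicate 1, against 38.1%, and at 48 (68.6%) for replicate 2, against 35.5%. Only mrps-21 among the 29 had a relaxed summit in both replicates. The members with no summit in any of the 4 lists were mrpl-4, mrpl-10, mrpl-21, mrpl-37, mrpl-42, mrps-2, mrps-5, mrps-11 and mrps-22.

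Member summits were often shared with a neighbouring gene. Of the 41, 25 (61.0%, 45.7 to 74.3) also lay in the promoter window of another protein-coding gene, against 1394 of 3918 (35.6%, 34.1 to 37.1) for the other genes with a summit. For 24 of the 25 at least 1 such gene is on the opposite strand, much as for 1332 of the 1394. The share depends on the window, and within 250 bp of a start 17 of 31 members had a summit that no other gene shared. The member had the nearest start in 13 of the 25, and the gene itself did in 691 of the 1394 for the other genes. Among the partners were rpl-28, a cytosolic ribosomal protein gene, with mrpl-49, the proteasome gene rpn-8 with mrps-6, the nuclear pore gene npp-25 with mrps-10, the splicing factor genes prp-9 and prp-40 with mrps-18B and mrps-23, the casein kinase gene kin-3 with mrpl-9 and the ATP synthase gene asg-1 with mrps-15. Which gene such a peak serves was not tested. The 16 members with a summit of their own had an interquartile range of signal from 78.8 to 688, and the 25 with a shared one a range from 101 to 308. The mrps-35 summit is nearer to the start of sws-1 than to that of mrps-35, and that of mrpl-45 nearer to the start of Y119D3B.12.

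Member summits lay upstream of the start in 39 of the 41 genes, mrpl-47 and mrpl-13 being the others. The median distance was 159 bp upstream (interval 208 to 131, interquartile range 238 to 123), against 163 bp upstream (interquartile range 273 to 76) for other genes with a summit. Cytosolic ribosomal protein genes had theirs at a median of 288 bp upstream (interval 326 to 264), which does not overlap the interval of the members. The member farthest upstream was mrps-18C, at 475 bp. Within 250 bp of a start lay 31 of the 41 member summits, 75.6%, against 69.9% of the summits of other genes (2739 of 3918) and 15 of the 69 at cytosolic ribosomal protein genes. Where transcription begins was not measured. Between annotated genes lay 35 of the 40 distinct member summits (87.5%), with 3 in UTR exons, 1 in a coding exon and 1 in an intron, and among the summits of other genes 76.8% lay between genes.

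**Figure D3:**
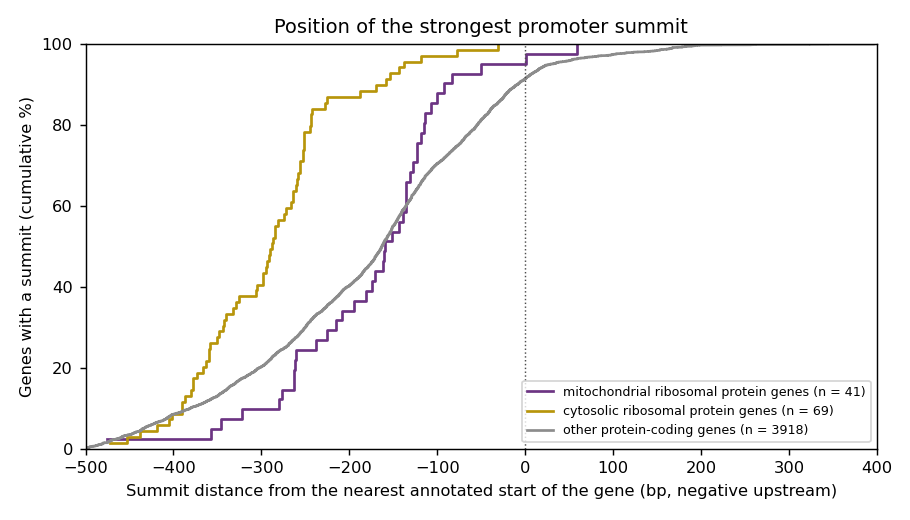
Cumulative share of genes (percent) by distance of the strongest promoter summit from the nearest annotated start (bp, negative upstream), for 41 members, 69 cytosolic ribosomal protein genes and 3918 other protein-coding genes, which include the cytosolic ones. The member curve has its quartiles at 238 and 123 bp upstream and lies right of the cytosolic curve, whose median is 288 bp upstream.

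The reproducible list was derived from the peaks of these replicates, so finding its peaks again in each replicate list is no independent support. All 41 members with a reproducible summit had a promoter summit in the relaxed list of replicate 1 and 40 in that of replicate 2, where mrpl-19 lacked one. In replicate 2, whose list of 26341 peaks includes background, these 40 ranked from 64 at mrpl-28 to 20820 at mrpl-32. By overlap of at least 1 bp, replicate 1 held 100% of the member peaks and replicate 2 held 97.5%. For the promoter peaks of other genes these shares were 99.8% and 92.5%. Among the strongest 6712 peaks of each list, 40 of the 41 were found in replicate 1 and 29 in replicate 2. By overlap, these strongest peaks held 97.5% and 70% of the member peaks, against 97.7% and 74.3% of the promoter peaks of other genes. On the base of all 70 members, with or without a reproducible summit, the shares with a promoter summit among these strongest peaks were 57.1% and 41.4%. For the other genes they were 19.7% and 17.7%. The members not found there in replicate 2 had reproducible signals of at most 153, at mrpl-35. Among the 40 members with a reproducible summit and a summit in both relaxed lists, the signal ordered similarly, with Spearman's rho 0.843, against 0.738 over 3622 other genes. This rho is a description across genes of 1 pair of libraries. It leaves out mrps-21, which had a summit in both relaxed lists but no reproducible one. The largest rank differences among these 40 were at mrps-25, mrpl-35 and mrps-23. At mrps-25 the signal was 66.5 in replicate 1 and 12.7 in replicate 2, at mrps-23 it was 61.5 and 10, and at mrpl-35 it was 145 and 5.11, so mrps-25 and mrps-23 ranked higher among members in replicate 2 and mrpl-35 in replicate 1. Summits in the replicates were a median of 18 bp apart, and 33 of 40 pairs were within 50 bp.

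**Figure D4:**
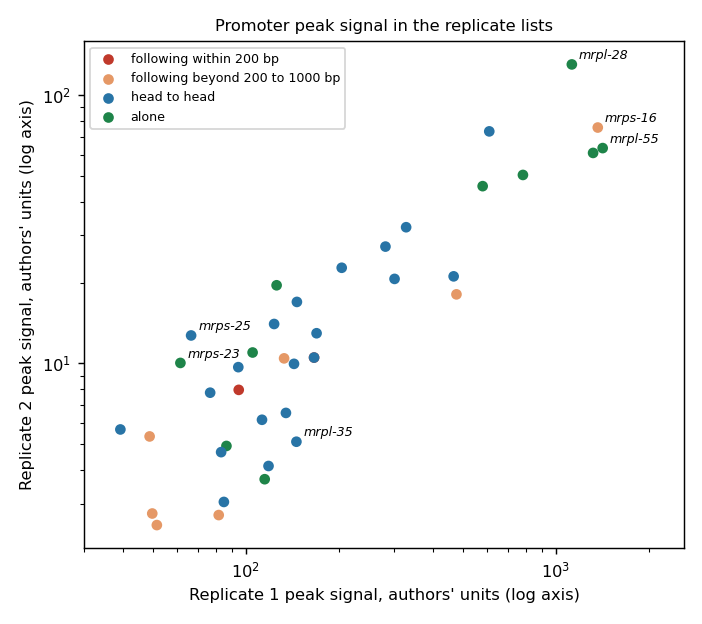
Promoter peak signal in the relaxed list of replicate 1 (horizontal) and of replicate 2 (vertical), both in authors' units on log axes, coloured by arrangement. Shown are the 40 members with a reproducible summit that also had a summit in both relaxed lists. The points rise together (rho 0.843), with mrpl-28 highest in replicate 2 at 130 and mrpl-55 highest in replicate 1 at 1416; mrpl-1 and mrps-24 share 1 peak and coincide.

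Windows reaching 75 bp to either side of the 40 distinct member summits were read on both strands for short words, and so were windows of the same length at all 6712 reproducible summits. GCGGGAA or GCGCGAA, of the E2F type, occurred at 7 of 40 (17.5%, 8.75 to 32.0), against 8.37% (7.47 to 9.38) of the 3212 promoter summits of other genes and 6.90% of all reproducible summits. They were at mrps-16, mrpl-28, mrps-35, mrpl-9, mrps-31, mrps-9 and mrps-25. GCGCGAA at mrps-9 was 2 bp from the summit, and that at mrpl-28 was 44 bp from it. TTTGAA or TTCGAA, of the CHR type, occurred at 17 of 40 (42.5%, 28.5 to 57.8), against 39.4% and 34.6%. TGATAA, of the type bound by gut GATA factors, occurred at 3 of 40 (7.50%, 2.58 to 19.9), at mrpl-44, mrps-7 and mrpl-45, against 19.2% (17.9 to 20.6) of the promoter summits of other genes and 23.3% of all reproducible summits. The E box CACGTG occurred at 1 of 40, mrpl-13, against 7.25% of the promoter summits of other genes and 9.91% of all. For each type the interval of the members overlaps that of the other promoter summits within 75 bp. Within 50 bp the order of the CHR type turned, with 20% of the member summits against 28.3% of the others. Within 50 bp TGATAA was at 0 of 40 member summits (upper bound 8.76%), against 14.1% (12.9 to 15.3) of the others, and there the intervals do not overlap. The member windows had a median GC content of 38.1%, against 41.1% for the promoter summits of other genes, and its part in these shares was not tested.

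The members lie on all chromosomes but X, with 22 of the 70 on chromosome III, 15 on I, 12 on II, 11 on IV and 10 on V. On X lie 13.7% of the other protein-coding genes. A reproducible promoter summit was found at 17 of 22 on III, 9 of 15 on I, 6 of 11 on IV, 5 of 10 on V and 4 of 12 on II, with overlapping intervals (56.6 to 89.9% on III and 13.8 to 60.9% on II). Of the other protein-coding genes 28.1% on III, 25.6% on I, 18% on IV, 14.7% on V and 19.0% on II had one.

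Other genes of mitochondrial gene expression and protein handling were compared as lists. In the list of mitochondrial translation factors and tRNA synthetases, which also holds the ribosomal protein gene dap-3, 12 of 19 (63.2%, 41.0 to 80.9) had a reproducible promoter summit, or 12 of 18 without dap-3, led by the tRNA synthetase genes vars-1 (1504) and sars-2 (916) and by mrrf-1 (790), which encodes a ribosome recycling factor. In the mitochondrial import list 15 of 22 did (68.2%, 47.3 to 83.6), led by ddp-1 (2308), a small chaperone of the intermembrane space, tomm-20 (1915), an import receptor gene, and the processing peptidase gene mppb-1 (1392). In the mitochondrial stress response list 11 of 17 did (64.7%, 41.3 to 82.7), led by the prohibitin gene phb-2 (2189) and the protease genes clpp-1 (1508) and spg-7 (1313). The clpp-1 summit also lay in the promoter window of mdt-22. All 3 shares stand against the 19.7% of other protein-coding genes and overlap the interval of the members. The import and stress response lists both hold hsp-6, which had a summit, so they are not fully separate. In the short list of mitochondrial DNA maintenance, 1 of 7 did, mtss-1 (141), which encodes a single-stranded DNA binding protein. Following a gene within 200 bp, 2 of 8 genes of the translation list, dap-3 included, had a summit, against 10 of 11 not so placed.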

How the data were processed

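Per the labels and the notes deposited with the samples, the authors called peaks on each replicate and on both pooled against a control alignment, and derived the IDR list from these. Which aligner, caller and IDR cut-off were applied is not given in the sources used here. Each peak's signal is as the authors deposited it and was used within a list only. Both replicates are biological, per the labels, with fragments of 150 to 350 bp. The 4 ce11 lists were used, and the ce10 lists were not used here.

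Genes came from Ensembl release 115 and sequence from the RefSeq genome, both WBcel235, which ce11 names, and 12 genes of the mitochondrial genome were left out. Shares have 95% Wilson intervals, differences of shares Newcombe intervals and medians order-statistic intervals. A gene followed another when a same-strand gene ended within 1000 bp upstream and nearer than any opposite-strand start. Named genes are the 12 strongest members, the 3 weakest, those without a summit, those missing from a replicate, those sharing a summit, the 3 largest rank differences among members, the 3 strongest of each other list, the transgene parts and mrps-5; neighbours, motif carriers and most members in the lists of partners and rows were named after their values were seen. The members and the 5 other lists were chosen with earlier results of these data known, and of 79 symbols in the mitochondrial lists 65 matched the annotation. When tested on simulated data, the scripts found all of 2000 planted promoter genes and 300 of 300 planted motif sites. Overlaps were checked with bedtools 2.31.1. Python 3.11.15, numpy 2.4.6, scipy 1.17.1 and matplotlib 3.10.9 were used. Alternatives are given in the closing section.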

Additional observations from a re-analysis of the deposited data

How the results depend on the processing

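Of 120 values recomputed under other settings, 96 stayed within the interval of the main value and no difference whose interval excludes 0 changed direction. The difference between bacterial and higher numbers, not detectable in any setting run, was -5.80 with replicate 2 alone and 15.1 percentage points with replicate 1 alone. With 250 bp either side of a start the share of members with a summit was 44.3%, against 14.1% of other genes, losing 10 members whose summits lie farther upstream, and with 1000 bp upstream it was 65.7% against 24%. In the stronger 3356 peaks it was 41.4% against 12.6%, and with peaks that rank among the strongest 6712 of each replicate, a setting chosen after seeing the data, 41.4% against 14.5%. With the nearest start within 2 kb it was 51.4% against 22.5%, and with the longest transcript only 58.6% against 18.2%. With a single replicate it ran from 41.4% to 57.1%, against 17.7% to 19.7%. Members with a summit of their own were 54.8% in the narrower window, and 100% with the nearest start, by construction. In the narrower window the import list had 36.4%, the stress response list 35.3% and the cytosolic ribosomal list 19.2%, which with the nearest start had 56.4%. The difference between following and other members was -56.7 percentage points, -72.2 with a limit of 200 bp and -37.1 with the nearest start within 2 kb. With 50% reciprocal overlap replicate 2 kept 67.5% of the member peaks, against 77% of the promoter peaks of other genes. Within 150 bp of the summit TTTGAA occurred at 62.5% of member summits, against 57.2% of other promoter summits, TTCGAA at 25% against 21.1% and TGATAA at 20% against 33.1%. Within 50 bp TTTGAA occurred at 15% against 22.4% and TGATAA at 0 of 40 against 14.1%. Wider windows hold more words by construction. Signal was not recomputed with single replicates, because signals of different lists are not comparable. The number of members limits every split of them, and read depth is unknown.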
